A study of Mus musculus with 24 samples.

Results

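The 7 granule genes of immature granulocytes and their progenitors were followed through every library of the series: Elane, Prtn3, Ctsg, Mpo, Prg2, Fcnb and Ms4a3. They were named as a list and matched by symbol to the Ensembl identifiers of the count files, where all 7 were found among 54446 genes. The genes were selected on values of these same libraries. Elane, Mpo and Prg2 were among the largest falls in WT Input after irradiation, Elane also differed between the unirradiated genotypes, and Mpo and Fcnb stood out in IP relative to Input in WT cells. Values in those contrasts are therefore a description, and a count of calls printed for them says only how the genes were picked.

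CD11b+ myeloid cells were sorted from MC38 tumours, a transplanted colon carcinoma of the mouse, in C57BL/6J hosts. All mice carried floxed Ythdf2. WT mice (Ythdf2 fl/fl) had no Cre, and cKO mice (Lyz Cre+;Ythdf2 fl/fl) expressed Cre from the Lyz2 locus, which is active in monocytes, macrophages and granulocytes, so that deletion is limited to cells that have used this locus. Tumours received no irradiation (Ctrl) or a single dose of 20 Gy (IR) and were collected 3 days later. Ythdf2 encodes a protein that binds N6-methyladenosine (m6A) in RNA. Each of the 4 conditions had 3 Input libraries and 3 libraries of RNA fragments pulled down with an m6A antibody (IP), which gave 24 libraries. The cells of a replicate came from several pooled mice, and the methods name the replicates technical in one passage and biological in another, so p-values here measure the spread between libraries. Mice of both sexes, between 8 and 10 weeks old, served across the study, and the sex and age behind each library were not given in the sources used here.

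Primary (azurophil) granules are the first granules a developing neutrophil makes. Their cargo is transcribed in promyelocytes and in granulocyte-monocyte progenitors in the bone marrow and is shut down before secondary granules form, so that a mature neutrophil carries the proteins but little of the RNA. Elane, Prtn3 and Ctsg encode the serine proteases neutrophil elastase, proteinase 3 and cathepsin G. Mpo encodes myeloperoxidase, which makes hypochlorous acid from hydrogen peroxide. Prg2 encodes major basic protein of the eosinophil granule. Fcnb encodes ficolin B, a lectin of the complement system made by myeloid cells. Ms4a3 encodes a membrane protein with several spans whose expression marks granulocyte-monocyte progenitors.

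Reads counted over genes came to between 65180075 and 83661576 per Input library and between 68846321 and 86421888 per IP library. Irradiated IP libraries went against their labels in Lyz2, and Ythdf2 reads in Input did not fall with the cKO label. Ythdf2 was higher in Input libraries labelled cKO (175 to 234 CPM, a count scaled to the library's total) than in those labelled WT (95.7 to 104 CPM), although reads over the whole gene do not test for a deleted part. Lyz2, whose locus carries the Cre, had 21795 to 30046 counts in Input libraries labelled cKO and 1333334 to 1591503 in those labelled WT. In IP the order was kept without irradiation, but libraries labelled WT IR had 6558 to 7276 Lyz2 counts and those labelled cKO IR had 1616569 to 1783903. Irradiated IP groups are for this reason named by label only. Itgam, which encodes CD11b, was present in all 24 libraries at 273 CPM or more. Erythroid genes moved with a single group: their summed level was 27.6 to 30.0 CPM in WT IR Input and at most 0.187 CPM in the other Input groups, and Hbb-bs had 789 to 1070 counts there against 0 to 3 elsewhere.

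The members lie on 5 chromosomes, and several sit beside genes of the same kind (mm10, GRCm38). Prtn3 (chr10:79874476-79883174, plus strand) and Elane (chr10:79886247-79888215, plus strand) are neighbours 3.07 kb apart. Mpo (chr11:87793581-87804413, plus strand) is 59.6 kb from Epx, the eosinophil peroxidase gene, with Lpo between them. Ctsg (chr14:56099881-56102574, minus strand) is 14.6 kb from Mcpt8, a basophil protease gene. Ms4a3 (chr19:11629496-11640851, minus strand) lies 5.78 kb from Ms4a2, a subunit of the IgE receptor, and Prg2 (chr2:84980461-84983632, plus strand) lies 4.58 kb from Prg3, its eosinophil paralog. Fcnb (chr2:28076378-28084885, minus strand) has no such neighbour. Granule genes also stood beside genes that did not share their pattern: Cfd, 2.64 kb from Elane, had 1 count in all 12 Input libraries together.

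Promoter sequences from RefSeq (GRCm38.p6, 250 bases before to 50 after the annotated start) were found for 6 of the 7 members and not for Prg2. They are shown because the members fell together in Input. The letters GGAAGT, the core bound by ETS family factors such as PU.1, occurred in 6 of these 6 promoters and in 23.8% of 32851 promoters of the table, searched on both strands; in each of the 6 a copy was on the gene's own strand. The longer AGGAAGT, which contains the core, occurred in 5 of 6 and in 9.35% of all. These letters were chosen after the 6 promoters had been seen, so the counts are a description. Distances count from the RefSeq start, which can differ from the gene start given above. The stretches below for Mpo and Elane run past that gene start, and the stretch for Prtn3 lies inside the gene. The following stretches run 5′ to 3′ on the gene's strand, with the core in capitals.
Elane, chr10:79886205-79886258, core 83 bases before the start: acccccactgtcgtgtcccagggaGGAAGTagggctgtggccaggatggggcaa
Prtn3, chr10:79879550-79879603, core 93 bases before the start: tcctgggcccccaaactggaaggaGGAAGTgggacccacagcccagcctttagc
Ctsg, chr14:56102750-56102803, core 205 bases before the start: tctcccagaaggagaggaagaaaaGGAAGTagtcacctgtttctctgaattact
Mpo, chr11:87793538-87793591, core 222 bases before the start: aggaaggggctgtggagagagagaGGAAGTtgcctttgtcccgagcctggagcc
Fcnb, chr2:28084951-28085004, nearer of its cores, 102 bases before the start: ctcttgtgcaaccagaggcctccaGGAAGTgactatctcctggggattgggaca
Ms4a3, chr19:11640877-11640930, core 55 bases before the start: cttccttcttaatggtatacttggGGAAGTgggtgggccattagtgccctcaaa

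Other short motifs were less uniform, each searched on both strands in the same windows. TATAA was found in 4 of 6 and in 24.9% of all promoters. It lay 31 bases before the start of Elane, 32 before that of Prtn3 and 37 before that of Fcnb on the gene's strand, and 236 before that of Ctsg on the other strand. The C/EBP-type core TTNCNNAA was in the promoters of Fcnb and Ms4a3, 2 of 6 against 40.7% of all. The MYB core AACNG was in 5 of 6 against 80.3% of all, and the RUNX-type core TGNGGT in 1 of 6, that of Ctsg, against 45.8% of all. A match of letters is no measure of binding.

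In unirradiated WT Input all 7 members were transcribed at clear levels. Mpo had the most reads, with 2550, 2687 and 2459 counts, and Ms4a3 the fewest, with 145, 158 and 168. Because longer transcripts collect more reads, levels of different genes were compared as CPM per kb of merged exon. On that scale Fcnb (14.1 ± 1.23, SD, n = 3) and Prg2 (13.5 ± 0.751) stood highest and did not differ beyond their spread. Elane (10.4 ± 1.04) and Mpo (10.1 ± 0.400) followed, again within their spread. Prtn3 (3.83 ± 0.344), Ctsg (2.58 ± 0.711) and Ms4a3 (1.12 ± 0.0652) were lower. The serine proteases thus did not share a level, although Elane and Prtn3 are adjacent.

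**Figure D1:**
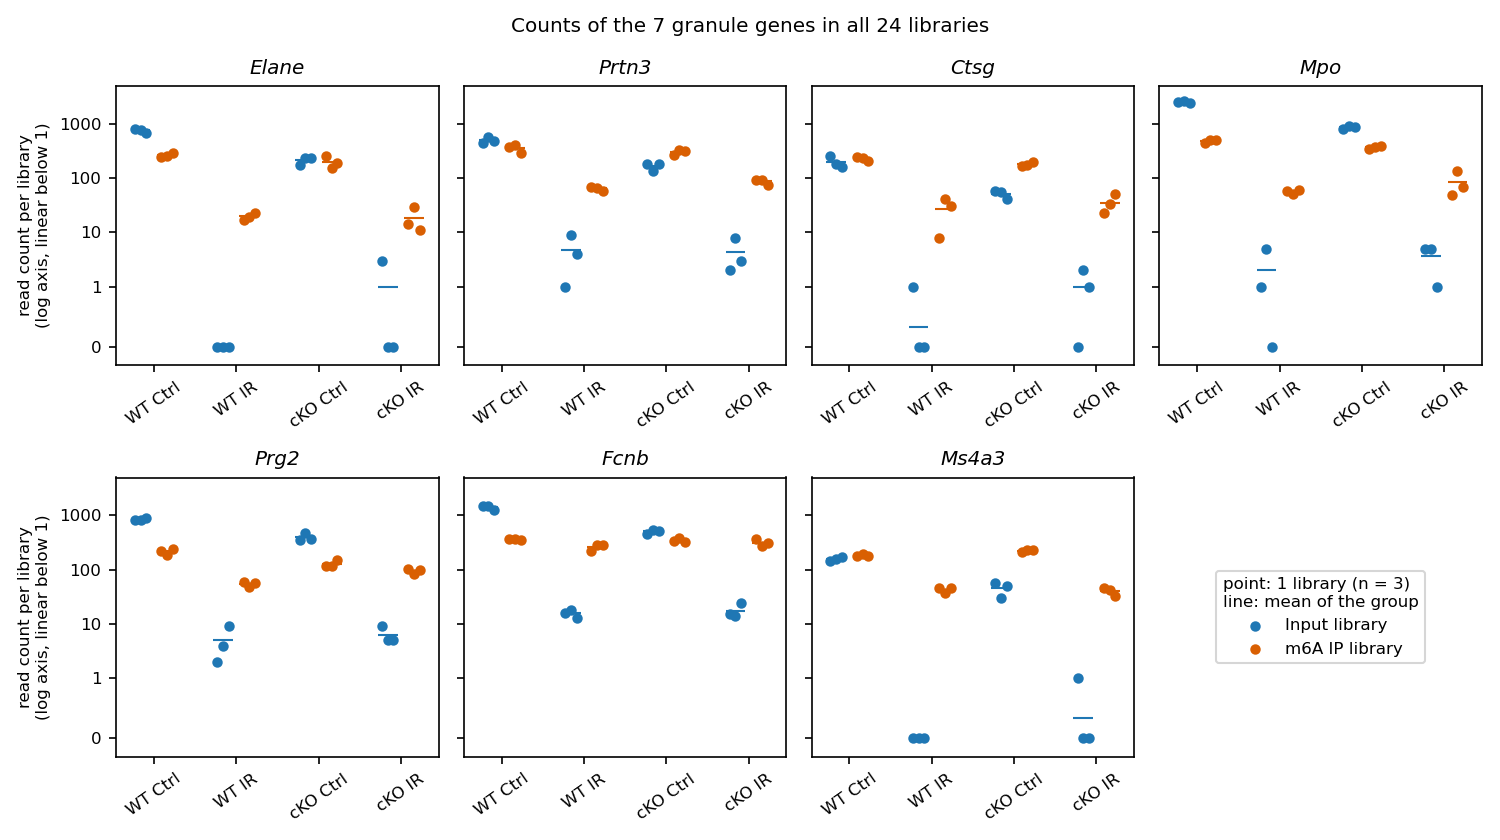
Read counts of each member (1 panel per gene; log axis, linear below 1) in the 4 conditions, with Input libraries in blue and m6A IP libraries in orange; a point is 1 library and a line the mean of 3. Irradiated Input libraries sit at 0 to 24 counts, while irradiated IP libraries sit at 8 to 366.

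After irradiation the members were almost absent from Input. The 42 values of 7 genes in 6 irradiated Input libraries ran from 0 to 24 counts, and 14 of them were 0. In WT, the 7 genes together gave 19262 counts in the 3 Ctrl Input libraries and 83 in the 3 IR Input libraries. In cKO, they gave 6728 and 103. In bulk RNA, fewer cells of a type and less RNA per cell cannot be told apart.

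The proteases were the clearest case. Elane had 811, 780 and 691 counts in WT Ctrl Input and 0, 0 and 0 in WT IR Input, which is at least 678-fold lower when the floor of 3 counts over the group is taken for the irradiated libraries. Prtn3 went from 446, 562 and 479 counts to 1, 9 and 4, which was 94.7-fold lower (95% interval 56.2 to 174). Ctsg went from 252, 184 and 158 counts to 1, 0 and 0, with a ratio of 529 whose interval ran from 94.6 to 20943. No irradiated WT library reached any unirradiated one for these genes. Folds of this kind are ratios of summed counts per scaled library size, and their intervals (exact conditional binomial) cover counting error only.

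The other members fell in WT as well. Mpo dropped from 2459 or more counts in each Ctrl library to 1, 5 and 0, a ratio of 1143 (525 to 3116). Prg2 had 832, 812 and 878 counts without and 2, 4 and 9 with irradiation, or 150-fold lower (90.7 to 268). Ms4a3 had 0 counts in all 3 irradiated libraries and was at least 140-fold lower. Fcnb kept the most reads, 16, 18 and 13 counts against 1467, 1462 and 1281, and was 79.8-fold lower (59.9 to 109). edgeR's quasi-likelihood test called all 7 lower in this contrast, in which 17% of 16090 genes were called lower. That count is a property of how the genes were picked.

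In cKO cells the same genes fell. The choices named above used cKO Input libraries only through the low unirradiated level of Elane. The list was drawn up with earlier results of these data known, so the cKO libraries are not an independent repeat. Elane went from 178, 233 and 237 counts in cKO Ctrl Input to 3, 0 and 0 in cKO IR Input, 196-fold lower (66.8 to 953). All 3 irradiated counts came from replicate 1, and without it the fitted log2 fold change of Elane went from -7.45 to -10.65, a value against 0 counts that is no bound. Mpo went from 822, 901 and 863 counts to 5, 5 and 1, 213-fold lower (119 to 428). Fcnb had 458, 542 and 517 counts without and 15, 14 and 24 with irradiation, 26.0-fold lower (19.8 to 34.8), with a log2 fold change of -4.69 (SE 0.16, adjusted p = 2.7e-14, edgeR). For these genes the highest irradiated library lay below the lowest unirradiated one.

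The remaining cKO values had the same form. Prg2 (347, 471 and 370 counts against 9, 5 and 5) was 56.7-fold lower (36.2 to 94.6). Ctsg (57, 56 and 42 counts against 0, 2 and 1) was 46.9-fold lower (15.7 to 230), and Prtn3 (180, 136 and 182 against 2, 8 and 3) was 34.8-fold lower (20.1 to 65.7). Ms4a3 had 56, 30 and 50 counts without irradiation and 1, 0 and 0 with it, a ratio of 123 with an interval of 21.8 to 4910. Leaving out 1 irradiated library moved the fitted log2 fold change of Ms4a3 from -6.52 to -8.42 (replicate 1), of Ctsg from -5.39 to -6.23 (replicate 2) and of Prtn3 from -5.09 to -5.85 (replicate 2). All 7 were called lower by edgeR, in a contrast in which 23.8% of genes were called lower. For 6 of them the call was the only one open, since no irradiated Input library held 10 counts and they passed the filter on low counts through unirradiated libraries alone; Fcnb had 10 or more counts in all 12 Input libraries. Erythroid transcripts were near 0 in cKO IR Input, at a summed 0.0418 to 0.114 CPM.

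Genotype made a smaller difference than irradiation. In unirradiated Input every member was lower in cKO than in WT, with no overlap of libraries: Ctsg by 3.98-fold (3.33 to 4.78), Elane by 3.66-fold (3.35 to 4.0), Ms4a3 by 3.60-fold (2.97 to 4.39), Prtn3 by 3.10-fold (2.80 to 3.44), Mpo by 3.09-fold (2.96 to 3.23), Fcnb by 2.88-fold (2.72 to 3.06) and Prg2 by 2.20-fold (2.06 to 2.36). All 7 were called lower, against 7.61% of genes. This contrast chose Elane and is given without a reading of that count. Per kb of exon the order in cKO Ctrl Input was Prg2 (6.13 ± 0.511 CPM per kb, SD, n = 3), Fcnb (4.92 ± 0.179), Mpo (3.29 ± 0.122), Elane (2.86 ± 0.331), Prtn3 (1.26 ± 0.283), Ctsg (0.654 ± 0.117) and Ms4a3 (0.320 ± 0.117). Mpo and Elane, which lay within 1 SD of each other in WT, were farther apart than either SD here, and Prg2 stood above Fcnb.

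In irradiated Input the genotypes could not be separated at the counts left. Fcnb had 16, 18 and 13 counts in WT and 15, 14 and 24 in cKO, a ratio of 1.07 (0.706 to 1.61, cKO over WT). Prg2 gave a ratio of 1.20 (0.577 to 2.53) and Mpo of 1.73 (0.588 to 5.71), while Prtn3 was 1.14-fold lower in cKO (0.496 to 2.63). None of the 7 was called by edgeR in a contrast in which 47.7% of genes were called in either direction. By DESeq2 the count was also 0, and 0 members had an unadjusted p under 0.05 in either tool. For Elane, Ctsg and Ms4a3, with at most 3 counts in either group, no fold can be given.

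The rest of the granulocyte programme was examined through lists of other genes, which were also drawn up with earlier results of these data known. Genes of secondary granules, which form later in neutrophil development, were lower after irradiation in WT for 16 of 16 tested and in cKO for 13 of 16, with 1 higher. Ngp (log2 fold change -4.26 in WT and -4.20 in cKO), Ltf, encoding lactoferrin (-4.12 and -4.10), and Camp, encoding cathelicidin (-4.21 and -3.90), changed most. Genes of mature neutrophils were lower for 13 of 16 in WT and 11 of 16 in cKO, led in WT by Lrg1 (-3.31). The share of all genes called lower was 17% in WT and 23.8% in cKO. The median log2 fold change was -2.21 for secondary granule genes and -1.45 for mature neutrophil genes in WT, and -1.22 and -0.79 in cKO, where all genes had a median of 0.01 in both contrasts. Fitted medians of the 7 members (-8.63 and -5.79) rest on genes at or near 0 and depend on the fit's prior count.

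**Figure D2:**
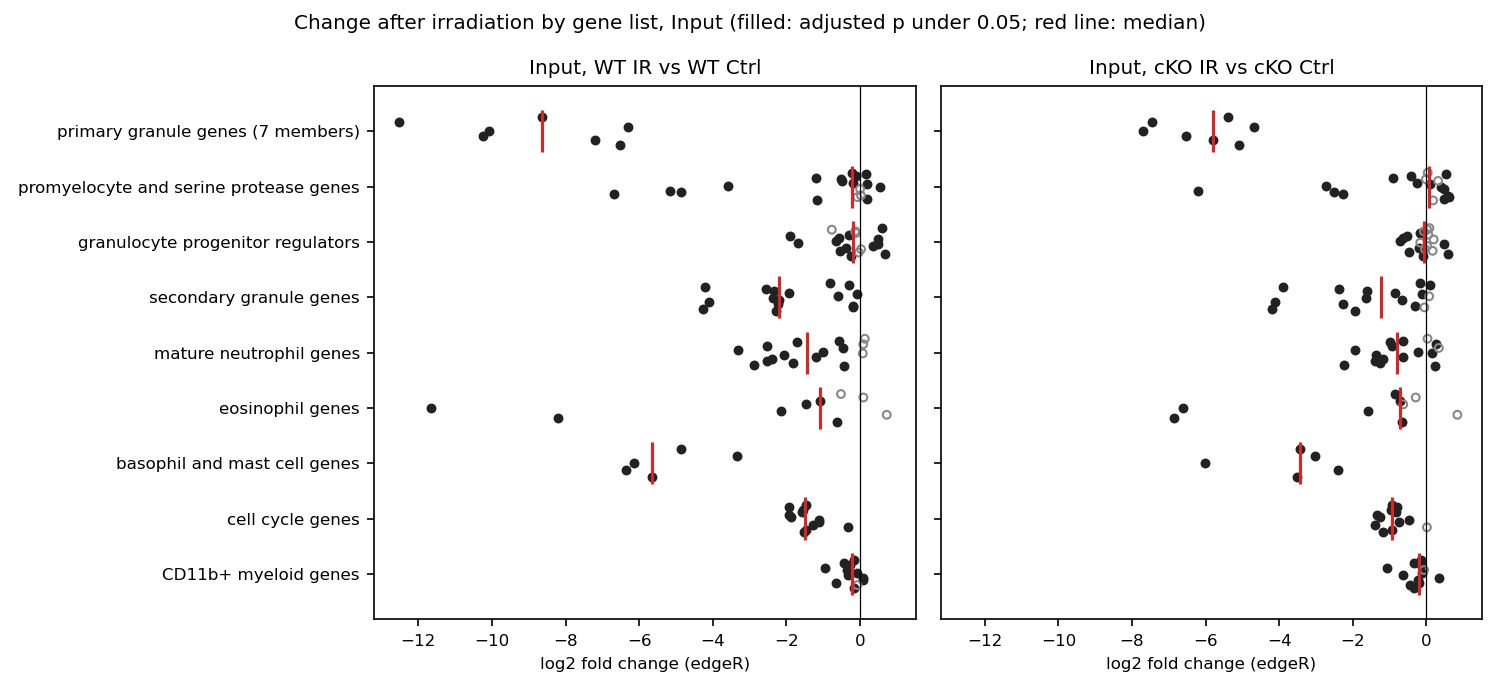
Fitted log2 fold change in Input after irradiation (x axis) for the 7 members and 8 lists of other genes (rows), in WT on the left and cKO on the right; a point is 1 gene, filled when called by edgeR, and the red line is the median. The members lie between -4.69 and -7.69 in cKO, below the median of every other list shown. No member but Fcnb reached 10 counts in any irradiated Input library, so the fitted position of the others is no bound. Other points beyond about -6 also belong to genes with few or 0 irradiated counts.

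Genes often listed beside primary granules were mixed. Of 18 tested promyelocyte and serine protease genes, 11 were lower and 4 higher in WT, and 7 were lower and 7 higher in cKO. Among genes above 1 CPM in some group, the largest falls were those of Plac8 (log2 fold change -4.86 in WT and -2.51 in cKO) and of Hdc, the enzyme that makes histamine (-3.60 and -2.73). Below 1 CPM, the serine protease gene Prss57 had 41, 51 and 64 counts in WT Ctrl and 0, 0 and 1 in WT IR Input. In cKO its counts were 7, 11 and 5 without and 0, 4 and 0 with irradiation. Muc13 went from 19, 25 and 10 counts to 0, 1 and 0 in WT Input. Of 18 tested regulators of granulocyte progenitors, 8 were lower and 5 higher in WT and 7 and 2 in cKO. Cebpe (-1.91) and Gfi1 (-1.67), both needed for neutrophil maturation, were lower in WT. In cKO Input, Cebpe went from 253, 281 and 288 counts to 185, 167 and 167. Gfi1 had 140, 138 and 171 counts in cKO Ctrl and 146, 129 and 91 in cKO IR Input, which overlapped. Gata2 (-0.70) and Csf3r (-0.63) were lower in cKO, and Sox4 was higher in WT (0.69) and cKO (0.59). Over the 67 tested genes of the granulopoiesis lists, 47 were lower and 9 higher in WT, 37 lower and 13 higher in cKO, and 38 lower and 14 higher between the unirradiated genotypes. Between the irradiated genotypes 29 were lower and 27 higher. For all genes tested, the shares called lower were 17% in WT, 23.8% in cKO and 7.61% between the unirradiated genotypes. Between the irradiated genotypes 47.7% of genes were called in either direction. Shares of all genes called higher are not given, so the counts of higher genes cannot be judged against them.

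Markers of other cells moved with the members. Of all genes tested, 17% were called lower after irradiation in WT and 23.8% in cKO. Of 9 tested eosinophil genes, 6 were lower after irradiation in each genotype and none higher; Epx went from 1258 counts in WT Ctrl Input to 0 in WT IR Input, and from 474 to 4 in cKO. Of 10 listed basophil and mast cell genes 5 were tested, and all 5 were lower in both genotypes. The list summed to 17.8 to 19.6 CPM in WT Ctrl and 0.358 to 0.622 CPM in WT IR Input, and Mcpt4 was at 0 in all Input groups. Mcpt8 had 8 summed counts in WT IR and 4 in cKO IR Input. No irradiated Input library of Epx or Mcpt8 thus held 10 counts, so lower was the only call open to them. Of 12 cell cycle genes, 12 were lower in WT (Birc5, -1.94) and 11 in cKO (Mki67, -1.41). Of 12 CD11b+ myeloid genes, all detected, 9 were lower and 2 higher in WT and 10 lower and 1 higher in cKO, by smaller amounts (median log2 fold change -0.22 and -0.21; Ccr2, a chemokine receptor of monocytes, -0.94 and -1.06). Their summed level went from 6031 to 6071 CPM in WT Ctrl to 5056 to 5109 in WT IR Input, and from 7186 to 7267 CPM in cKO Ctrl to 5870 to 5968 in cKO IR Input. Lymphocyte genes summed to at most 2.01 CPM and epithelial genes to at most 8.11 CPM in any Input library, with Krt19 at 0 in all Input groups. The part of these other cells in the fall of the members was not tested.

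Of 12030 other genes, those whose Input profile over 12 libraries was most like the mean profile of the members were led by Epx (Pearson r = 0.9949), Lrg1 (0.9937), Mogat2 (0.9921), Mcpt8 (0.9909) and Kif23 (0.9907), followed by I830127L07Rik, Stfa2, Kif15, Rap1gap2 and Lbp (0.9891). The 12 libraries share 4 conditions, so these values are a description. The neighbours of Mpo and Ctsg noted above, Epx and Mcpt8, were thus among the 5 nearest profiles. The order depended on the measure, and by Spearman's rho 1 of the 10 genes, Kif15, stayed among the first 10.

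The m6A IP libraries gave another picture of the same genes. Without irradiation the members had 117 to 505 counts per IP library, and the genotypes differed by at most 1.71-fold (Prg2). Fcnb had 360, 373 and 345 counts in WT Ctrl IP and 340, 377 and 322 in cKO Ctrl IP, and these overlapped. Elane had 250, 253 and 285 counts in WT and 256, 157 and 192 in cKO, with the cKO libraries spread more widely. Only Prg2 passed the test, with 221, 188 and 242 counts in WT against 118, 117 and 153 in cKO (log2 fold change -0.78, SE 0.19, adjusted p = 0.0012, edgeR). That is 1 of 7 members lower in a contrast in which 17.1% of genes were. For Mpo the log2 difference was -0.39 (SE 0.18, adjusted p = 0.085) and for Ms4a3 it was 0.26 (SE 0.18, adjusted p = 0.29). When only these 6 IP libraries were fitted, without the irradiated ones, 3 members were called lower: Prg2, Mpo (adjusted p = 0.0034) and Elane (adjusted p = 0.049).

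The change between the unirradiated genotypes in IP can be set beside that in Input. In a fit of all 24 libraries, the IP change minus the Input change, cKO against WT, was 2.07 for Ms4a3 (SE 0.32), 1.61 for Ctsg (SE 0.43), 1.46 for Elane (SE 0.27), 1.43 for Fcnb (SE 0.16), 1.34 for Prtn3 (SE 0.26), 1.22 for Mpo (SE 0.21) and 0.36 for Prg2 (SE 0.21) on the log2 scale. This contrast was added after the data had been seen and holds the Input difference that chose Elane and the WT ratio of IP to Input behind the choice of Mpo and Fcnb. It is therefore a description, and nothing is read from its 6 of 7 members called higher, against 10.1% of genes.

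IP over Input separated the members by gene. In WT Ctrl, Mpo (log2 ratio -2.59, SE 0.15), Fcnb (-2.14, SE 0.11), Prg2 (-2.13, SE 0.14), Elane (-1.71, SE 0.19) and Prtn3 (-0.63, SE 0.18) were lower in IP than in Input. The adjusted p of Prtn3 was 0.0019 (edgeR). Ms4a3 (0.06, SE 0.22) and Ctsg (0.02, SE 0.29) did not pass the test. Of 17373 genes 37.5% were lower in IP. The WT Ctrl ratio is part of the contrast that chose Mpo and Fcnb, and of the other 5 members 3 were lower. In cKO Ctrl, Ms4a3 (2.13, SE 0.24), Ctsg (1.64, SE 0.32) and Prtn3 (0.71, SE 0.19) were higher in IP, while Prg2 (-1.77, SE 0.15), Mpo (-1.36, SE 0.15) and Fcnb (-0.70, SE 0.12) were lower and Elane (-0.25, SE 0.20, adjusted p = 0.25) was not called. Of all genes 37.8% were higher and 36% lower in that comparison. A log2 ratio of this kind is relative to the library as a whole, and the Input level differed between genotypes by the folds given above while the IP level differed less.

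**Figure D3:**
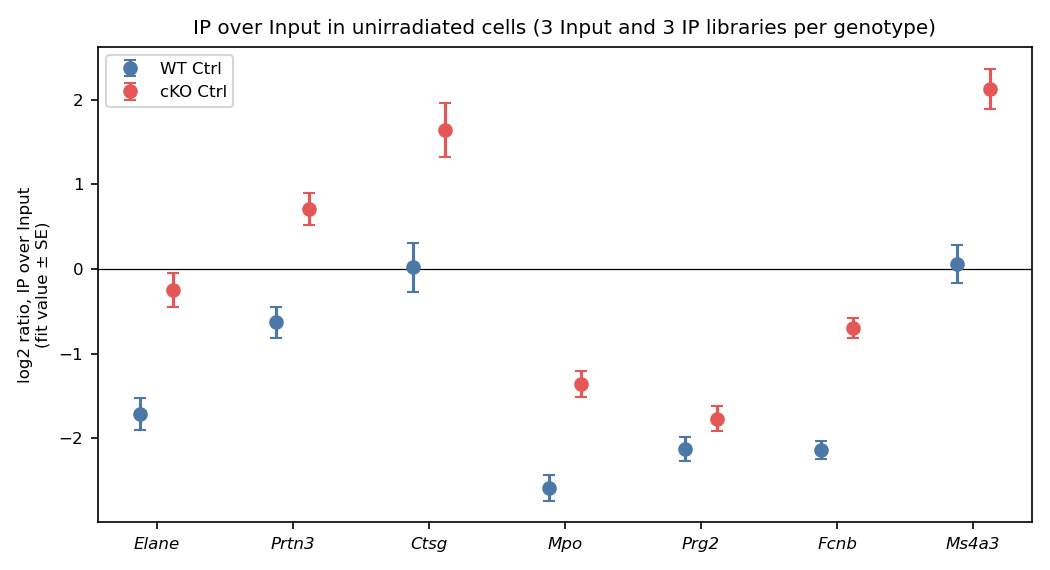
Log2 ratio of IP over Input (y axis, fitted value ± SE) for each member in unirradiated WT (blue) and cKO (red) cells, from 3 Input and 3 IP libraries each. Ms4a3, Ctsg and Prtn3 lie above 0 in cKO, at 2.13, 1.64 and 0.71, and the cKO value is above the WT value for each gene.

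In IP the fall after irradiation was smaller and left reads of every member in every library. Elane had 17, 19 and 23 counts in IP libraries labelled WT IR and 14, 30 and 11 in those labelled cKO IR, in contrast to 3 counts in all 6 irradiated Input libraries together. Mpo had 58, 52 and 60 counts and 48, 137 and 69. Fcnb had 220, 284 and 288 counts and 366, 268 and 316, against 322 to 377 without irradiation. In raw counts the libraries labelled WT IR lay below that range and those labelled cKO IR overlapped it. Per TMM-scaled library size there was no overlap for Fcnb, at 3.03 to 4.3 CPM in irradiated and 4.39 to 5.13 CPM in unirradiated IP libraries. Summed over the members, IP libraries went from 6272 counts in WT Ctrl to 1587 in those labelled WT IR, and from 5284 in cKO Ctrl to 2033 in those labelled cKO IR.

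By label, the IP level after irradiation was lower for 7 of 7 members in WT, against 29.3% of genes, and for 6 of 7 in cKO, against 27.5%. Mpo and Fcnb had been chosen on the WT change of IP relative to Input, and Elane, Mpo and Prg2 on the WT fall in Input. Their WT values here, and the WT count, are therefore a description. Among Prtn3, Ctsg and Ms4a3, log2 fold changes by label in WT ran from -3.05 for Ctsg (SE 0.30, adjusted p = 9.3e-11, edgeR) to -2.08 for Ms4a3 (SE 0.20, adjusted p = 4.4e-11, edgeR). Elane and Prg2 were at -3.70 (SE 0.27) and -1.96 (SE 0.20). The WT values of Mpo and Fcnb were -3.06 (SE 0.21) and -0.42 (SE 0.13), and that of Fcnb was -0.28 without WT IR replicate 1. In cKO the log2 fold changes of the members ran from -3.55 for Elane (SE 0.27, adjusted p = 1.9e-13, edgeR) to -0.23 for Fcnb (SE 0.12, adjusted p = 0.11), which was not called. Prg2 in cKO (-0.55, adjusted p = 0.017) lost its call without cKO Ctrl replicate 3 (-0.40, adjusted p = 0.13) or cKO IR replicate 2 (-0.47, adjusted p = 0.074). Between the irradiated labels only Prg2 differed, higher in cKO IR at 105, 82 and 98 counts than in WT IR at 59, 48 and 57 (0.64, SE 0.21, adjusted p = 0.013), which is 1 of 7 against 17.7% of genes higher. With the genotypes joined, so that the doubtful label plays no part, all 6 irradiated IP libraries lay below all 6 unirradiated ones in CPM for 7 of 7 members, against 16% of 16038 genes. Members chosen on their WT values are among the 7, so that count is a description.

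The irradiation change was tested for a difference between IP and Input in cKO, by label, as a comparison added after the data had been seen. The IP change minus the Input change was above 0 for all 7 members, from 2.99 for Ctsg (SE 0.85, adjusted p = 0.0041, edgeR) to 5.48 for Mpo (SE 0.45, adjusted p = 3.6e-12), in a contrast in which 23.6% of genes were called higher. For all members but Fcnb, no irradiated cKO Input library held 10 counts, so a fall was the only change in Input open to them. Their differences and p-values rest on that fall and are a description. Prg2 (5.26, SE 0.31) and Fcnb (4.47, SE 0.22) combined a steep fall in Input with a small one in IP. Single irradiated Input libraries moved several of these values: without replicate 1 the difference was 7.26 for Elane in place of 3.92 and 6.01 for Ms4a3 in place of 4.0, and without replicate 2 it was 3.96 for Prtn3 in place of 3.20 and 3.85 for Ctsg in place of 2.99. Of 16 secondary granule genes 14 were higher and 1 lower in it, at a median of 0.74.

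**Figure D4:**
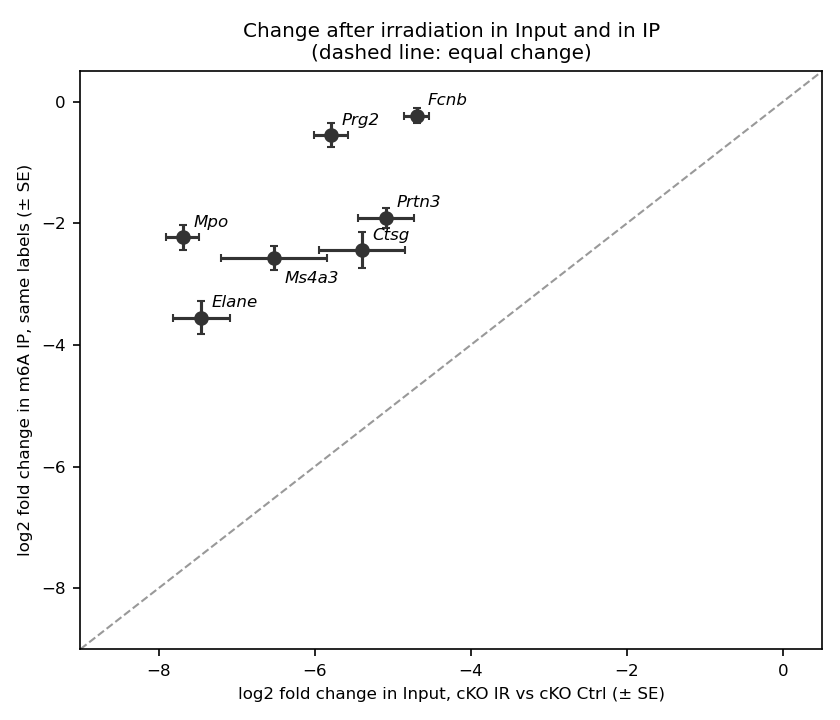
Log2 fold change after irradiation in cKO Input (x axis) against that in m6A IP libraries of the same labels (y axis) for the 7 members; bars are SE and the dashed line marks equal change. All points lie above the line, with Fcnb and Prg2 at the top (-0.23 and -0.55 in IP).

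Peaks, called by the authors for each IP library and strand against Input, were nearly absent from these genes. A consensus peak, meaning a peak found in all 3 replicates of a group, lay over 0 of 7 members in each of the 4 IP groups, while 29.9% of 16032 genes with enough IP counts had one in WT Ctrl, 27.9% in cKO Ctrl and, by label, 25.2% in WT IR and 22.5% in cKO IR. Unirradiated IP libraries held 117 to 505 counts per member, and a lack of peaks does not show that m6A is absent. The higher IP over Input ratios of Ms4a3 and Ctsg in cKO came without a peak in any library.

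The single peak over any member was in Prtn3, in replicate 2 of cKO Ctrl IP (chr10:79881845-79882060, plus strand, mm10). It was enriched 3.90-fold with a −log10 q of 10.6. Of its 216 bases, 126 lie in coding exon 4 of the 5 exons of the principal transcript and 90 in the intron before it, and its summit at 79881941 is in the exon. Its sequence, read from GRCm38 and shown because it is the only stretch of a member marked as enriched, has 2 GGAC motifs, a common form of the m6A consensus, given in capitals.
Prtn3 peak: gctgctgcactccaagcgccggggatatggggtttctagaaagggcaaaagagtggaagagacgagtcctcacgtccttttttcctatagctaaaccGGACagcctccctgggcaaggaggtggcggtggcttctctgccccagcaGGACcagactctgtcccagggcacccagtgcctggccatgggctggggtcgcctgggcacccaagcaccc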

How the data were processed

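Reads were trimmed by the authors with Trimmomatic 0.39, aligned to mm10 (GRCm38) with HISAT using GENCODE annotation and strand-specific settings, and assigned to genes by HTSeq. What the authors deposited for each library is a table of raw counts without normalization. Peaks were called by the authors with MACS2 per library and strand, and the deposited peak lists give fold enrichment as a ratio, −log10 p and −log10 q values and a score that is 10 times −log10 q. MeRIP-seq, which sequences RNA fragments before (Input) and after pull-down with an m6A antibody (IP), was analysed in 24 libraries. Rows that name no gene, which held 4.10 to 6.80% (no feature) and 2.27 to 2.68% (ambiguous) of Input reads, were left out.

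Counts were tested in edgeR 4.0.16 (R 4.3.3) with TMM scaling and glmQLFTest over genes reaching 10 counts in 3 or more libraries, in a fit of the 12 Input, the 12 IP or all 24 libraries. p-values were adjusted by Benjamini-Hochberg over all genes tested, and genes under 0.05 were called. DESeq2 1.42.0 was an alternative. Folds of summed counts were set per TMM-scaled library size, with exact 95% intervals and a floor of 3 counts, covering counting error only. Likeness used log2(CPM + 0.5). The fits were tested on simulated counts with known changes. These were smaller than the falls of the members in Input after irradiation, so falls of that size were not covered. All 7 members are named, and from each list up to 3 called genes with the largest change at a mean of 1 CPM or more, besides Lyz2, Ythdf2 and list genes at 0. Prg3, Ms4a2, Lpo and Cfd are named as neighbours, chosen after the data were seen. Calr, Cybb, Muc13 and Prss57 are named for their level, also chosen after the data were seen. Members, lists and tests were chosen with earlier results of these data known. The main fits did not pair libraries by replicate number.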

Additional observations from a re-analysis of the deposited data

Results flagged for a closer look

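The irradiation change of the members differed between IP and Input in cKO, by label, in edgeR's fit of all 24 libraries. For all members but Fcnb, no irradiated cKO Input library held 10 counts. A fall was thus the only change in Input open to them, and its size rests on values near 0. Their differences are a description. The difference on the log2 scale, IP change minus Input change, was 5.48 for Mpo, 5.26 for Prg2, 4.47 for Fcnb, 4.0 for Ms4a3, 3.92 for Elane, 3.20 for Prtn3 and 2.99 for Ctsg. With 1 library left out it ranged from 3.36 to 7.26 for Elane and from 3.53 to 6.01 for Ms4a3, highest without cKO IR Input replicate 1. It ranged from 2.85 to 3.96 for Prtn3 and from 2.44 to 3.85 for Ctsg, highest without cKO IR Input replicate 2. All 7 stayed called, but for members other than Fcnb these calls rest on that fall in Input. The Lyz2 level of the irradiated IP libraries was that of the other genotype, and its part in these differences was not tested. Groups of 3 libraries are too small for the test of a sample far from the others.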

How the results depend on the processing

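Alternatives were RLE size factors, DESeq2, no count filter, a minimum of 50 counts, only the libraries of the contrast, the replicate block and leaving out each library. Of 840 alternative log2 fold changes of members, 820 kept direction and side of the threshold. Members called in IP, cKO Ctrl against WT Ctrl, numbered 1, but 2 without a count filter, 3 with only the libraries of the contrast, and 1 to 2 with a library left out (2 without WT Ctrl replicate 3, when Prtn3 was called). Between the irradiated IP labels the count was 1, and 1 to 2 with a library left out (2 without cKO IR replicate 1, when Mpo was called at 0.75). Ctsg in IP over Input, WT Ctrl, 0.02, turned to -0.03 with RLE and DESeq2, -0.01 with 50 counts or only the libraries of the contrast, and -0.06, -0.13 and -0.04 without Input replicates 2 and 3 and IP replicate 1 (-0.13 to 0.25 over all libraries left out). Between the irradiated IP labels, uncalled values turned for Ctsg (-0.20 without WT IR replicate 1, -0.12 without cKO IR replicate 3, range -0.20 to 0.74), Mpo (-0.13 without cKO IR replicate 2, range -0.13 to 0.75) and Fcnb (-0.03 without WT IR replicate 1, range -0.03 to 0.19). Genes called in Input, cKO Ctrl against WT Ctrl, rose from 2520 to 3870 with only those libraries. With the replicate block, members called stayed at 7 in Input, cKO IR against cKO Ctrl, and granulopoiesis genes called after irradiation in WT went from 56 to 57; it changed no member's call. Libraries of the same replicate number did not deviate together, with same-number correlations of deviations between -0.0429 and 0.0325 and 0 above 0.1. Paired technical replicates could also give values near 0, so this does not exclude pairing. Without one library the granulopoiesis genes called ranged from 48 to 60 over the 4 Input contrasts. In smaller lists, leaving out a library took the eosinophil genes called between unirradiated genotypes from 5 to between 2 and 4, and the basophil genes from 5 to between 3 and 4. The cause of these moves was not tested.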
